A study of Mus musculus with 22 samples.

Results

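The liver of wild-type (WT) mice given glucagon at 30 µg/d, the lower of the doses in the series, was compared with the liver of WT mice without infusion across all genes. The comparison takes 7 of the 22 libraries, those whose labels give the genotype WT and the treatment no infusion (libraries 1, 2 and 3) or glucagon at 30 µg/d (libraries 7, 8, 9 and 10). The remaining libraries are WT liver at 150 µg/d (4 libraries) and liver of mice that lack the glucagon gene (Gcg KO) without infusion (3 libraries), at 30 µg/d (4) and at 150 µg/d (4). They entered here through the shared estimate of spread and through tests of the difference between doses and between genotypes. The labels give no strain, age, sex, feeding state, hour of collection or length of infusion, and no group infused with vehicle. Infusion itself and glucagon therefore cannot be told apart in these groups. Whether each library stands for its own mouse is not stated, and p-values speak only to the scatter among libraries, which may be technical.

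Glucagon is released by pancreatic alpha cells when blood glucose is low. It binds the receptor Gcgr on hepatocytes, which raises cAMP, activates protein kinase A and the transcription factor CREB, and so induces genes of gluconeogenesis and amino acid breakdown. WT mice make their own glucagon, and infusion here came on top of it. The series as a whole concerns liver zonation, in which hepatocytes close to the portal vein and hepatocytes close to the central vein carry out different metabolic tasks.

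Levels are RPKM, reads scaled to transcript length and library size, for 24475 genes in polyA RNA. Depth estimated from the steps between low values was 14.2 to 17.7 M reads in the uninfused and 12.04 to 13.8 M in the infused libraries, so that 1 read over 1 kb was worth 0.0565 to 0.0831 RPKM. The 10 hepatocyte markers, Alb among them, summed to 52171 to 56591 RPKM in uninfused and 52357 to 57285 in infused libraries. Gcg was listed at 0 in all 22 libraries, so the deleted gene checks no label in this tissue. Library 10, an infused one, stood apart: it alone among the 22 held Scgb1a1 (83.4 RPKM) and Sftpc (46.9 RPKM), which mark airway and alveolar epithelium. It was also the only one with values above 0 in the rows for the reporter eGFP (4.11 RPKM) and an IRES (1.49 RPKM), and results that turn on it are given with and without it. Library 9, also infused, was the most distant of the 7 from the others.

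No gene passed the test between liver at 30 µg/d and uninfused liver. Of 11590 genes with a mean of at least 0.5 RPKM, 0 had an adjusted p under 0.05 in limma (percent called 0). At an unadjusted p under 0.05 there were 657 genes (5.67%), 279 with a higher and 378 with a lower mean under infusion. Other fits of the same limma model called 1 gene with the compared groups alone (Pter), 2 with the 3 WT groups (Pter and Rnaset2a) and 4 with array weights, which weight each library by its scatter (Adck3, Ebp, Ppil1 and TrnL1). The smallest adjusted p was 0.166, for Ebp, and the next 0.461, for Adck3. Across genes the log2 fold change, the difference of mean log2(RPKM + 1), had a median of −0.01, with a 5th percentile of −0.29 and a 95th of 0.25. The 95% interval of the fold change lay within 1 log2 unit of 0, a doubling or halving on this scale, for 11008 genes (94.98%), and within 1.5-fold for 9578 (82.6%). For these genes larger changes lie outside the interval that these libraries give, one gene at a time. In 34 genes the mean differed by more than 1 log2 unit, 17 in each direction. Of the 17 higher ones, Scgb1a1 and Sftpc were there through library 10 alone, and without that library 20 genes were higher and 26 lower by more than 1 unit.

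The libraries of a group differed from each other about as much as the groups did. The mean absolute log2 difference over the 11590 genes was 0.150 to 0.196 between pairs of uninfused libraries and 0.207 to 0.283 between pairs of infused ones. Across groups it was 0.159 to 0.281 over 12 pairs, so the between-group pairs lay inside the range of the within-group pairs. All 6 pairs with library 9 were at 0.262 to 0.283. Without that library the infused pairs stood at 0.207 to 0.230 and the between-group pairs at 0.159 to 0.240. The closest pair across groups was library 1 with library 10, at 0.159, closer than library 10 was to any other infused library.

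**Figure D1:**
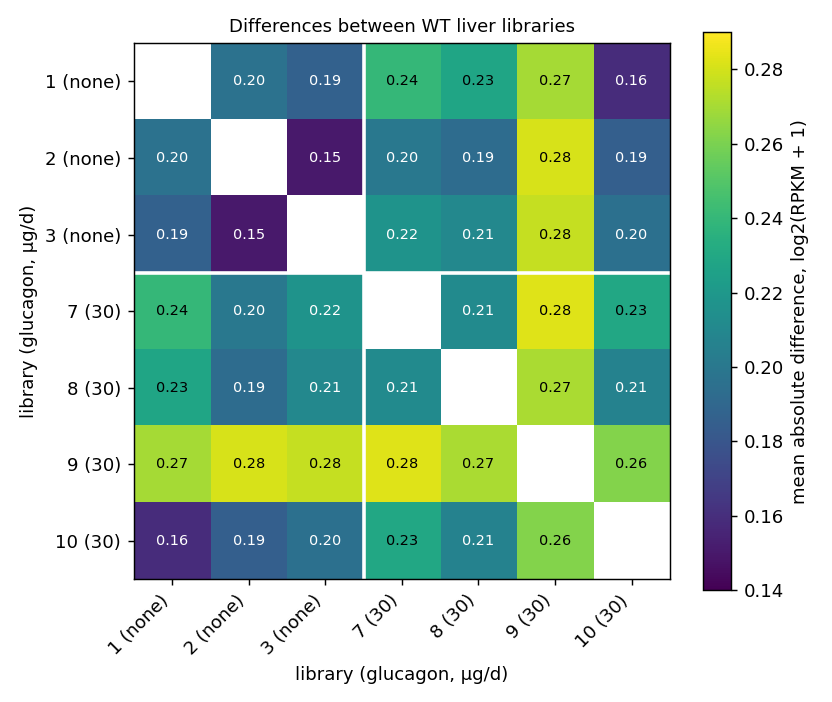
Mean absolute difference in log2(RPKM + 1) over 11590 genes for each pair of the 7 WT libraries (rows and columns; white lines divide uninfused from infused). Library 9 has the highest values in its row, 0.262 to 0.283, and libraries 1 and 10 are closer (0.159) than any pair of infused libraries.

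Among the genes of glucagon's own pathway, the receptor Gcgr was level. It stood at 93.9, 86.4 and 89.1 RPKM in libraries 1, 2 and 3 and at 86.7, 83.8, 82.4 and 84.0 RPKM in libraries 7, 8, 9 and 10. The groups overlapped through library 7, and the log2 fold change was −0.09 (95% interval −0.31 to 0.13). Of 35 tested genes of glucagon receptor and cAMP signalling, 0 were called, 22 had a fold change above 0 and 13 below, and the median was 0.06 against −0.01 over all tested genes. An unadjusted p was under 0.05 in 2 of the 35, near the 5.67% of all tested genes. These were Creb1, the cAMP-responsive transcription factor, and Arrb2, a beta-arrestin that uncouples activated receptors.

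Pck1, the cytosolic phosphoenolpyruvate carboxykinase that commits carbon to gluconeogenesis, is the textbook target of glucagon. Its promoter is shown because its cAMP response element is the standard site through which CREB acts. The 250 bases before the annotated start (RefSeq, GRCm38.p6, plus strand, chr2:173152823-173153072) hold 1 match to TTACGTCA, in capitals, beginning 93 bases before the start. The match was searched on both strands, and 0.447% of 32851 windows of the same length hold it. The palindrome TGACGTCA is held by 1.55% of these windows. Counted per gene, in any window of the gene, it is in 2 of 16 gluconeogenesis genes with a window (Ldha and Mdh2, not Pck1) and in 1 of 17 clock genes (Hlf). It is in none of 48 genes of amino acid catabolism or 16 of cholesterol synthesis. A gene can have more than 1 window, so these counts are not in the same unit as the share of windows. A match is a description of letters, not of binding.
Pck1: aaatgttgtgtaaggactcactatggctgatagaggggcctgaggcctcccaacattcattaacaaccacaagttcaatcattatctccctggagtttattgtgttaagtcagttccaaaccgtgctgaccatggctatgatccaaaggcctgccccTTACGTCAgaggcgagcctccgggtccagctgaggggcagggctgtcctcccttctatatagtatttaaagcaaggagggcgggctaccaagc

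Pck1 stood at 941, 923 and 559 RPKM in the uninfused and at 1546, 1241, 983 and 916 RPKM in the infused libraries. Libraries 7, 8 and 9 were above all uninfused ones, and library 10 was just below libraries 1 and 2. The log2 fold change of 0.54 (95% interval −0.15 to 1.24) did not pass (limma adjusted p = 0.854), and the interval includes both no change and a doubling. Without library 10 the groups did not overlap, as in 8.25% of all tested genes toward higher levels. The log2 fold change was then 0.65 (95% interval −0.10 to 1.41) and did not pass either (limma adjusted p = 0.649).

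G6pc, the glucose-6-phosphatase that releases free glucose, was at 184, 187 and 113 RPKM against 129, 94.2, 79.7 and 320 RPKM. Library 10 was the highest of the 7 and library 9 the lowest, with a log2 fold change of −0.24 (95% interval −1.60 to 1.12). Tat, the tyrosine aminotransferase, was at 489, 638 and 551 RPKM against 685, 795, 343 and 764 RPKM, with library 9 the lowest of all. Its log2 fold change was 0.14 (−0.71 to 1.002), and that of Ppargc1a, the coactivator PGC-1alpha, was 0.13 (−0.46 to 0.72). Of 18 tested genes of gluconeogenesis 0 were called and 0 had an unadjusted p under 0.05, with 8 above and 10 below 0 and a median of −0.01. For these genes no change was detectable, and for G6pc the interval is too wide to set a useful limit.

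Other fixed landmark genes, those of nitrogen handling and of the zones among them, did not pass either. Among enzymes of nitrogen handling, the log2 fold change was −0.25 for Oat (ornithine aminotransferase, 95% interval −1.07 to 0.58), −0.30 for Sds (serine dehydratase, −1.51 to 0.92) and −0.15 for Gls2 (liver glutaminase, −0.997 to 0.69). It was −0.20 for the urea cycle enzyme Ass1 (−0.99 to 0.59) and −0.25 for the aminotransferase Got1 (−1.82 to 1.32). Cps1, the entry enzyme of the urea cycle, had −0.00 (−0.57 to 0.56). Txnip, which binds thioredoxin, and Rgs16, which damps G protein signalling, were scattered within both groups. Rgs16 ranged from 7.13 to 28.3 RPKM in uninfused and from 1.36 to 117 RPKM in infused liver, so its log2 fold change of 0.40 had an interval of −2.03 to 2.84.

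The landmarks of the zones were close to their uninfused levels. Glul, the glutamine synthetase of the last hepatocytes before the central vein, was at 436, 419 and 407 RPKM against 413, 446, 383 and 443 RPKM. The groups overlapped fully, and the log2 fold change was −0.00 (95% interval −0.49 to 0.49). The pericentral cytochrome Cyp2e1 had 0.11 (−0.36 to 0.58), the Wnt target Axin2 0.11 (−0.32 to 0.54) and the periportal cytochrome Cyp2f2 0.09 (−0.27 to 0.44). Averaged as log2(RPKM + 1), the 24 periportal genes exceeded the 30 pericentral genes by 1.32, 0.98 and 0.97 in libraries 1, 2 and 3 and by 1.005, 0.88, 0.99 and 1.09 in libraries 7 to 10. All 4 infused values lay below that of library 1, and 3 of them above those of libraries 2 and 3.

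Ebp had the smallest p of all genes. It encodes the sterol isomerase of late cholesterol synthesis and lies on chromosome X (8185329 to 8193512, GRCm38). It stood at 136, 133 and 141 RPKM in the uninfused and at 79.2, 83.4, 86.4 and 95.3 RPKM in the infused libraries. The groups did not overlap and each was tight, at 137 ± 3.99 RPKM (SD, n = 3) and 86.1 ± 6.84 RPKM (SD, n = 4). The log2 fold change was −0.67 ± 0.12 (SE; 95% interval −0.91 to −0.42), and with a limma adjusted p of 0.166 it was not called.

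The mean level of Ebp rose with the dose in Gcg KO liver but did not follow the dose in WT liver. It was 134 ± 11.6 RPKM (SD, n = 4) in WT liver at 150 µg/d, 77.5 ± 5.92 (n = 3) in uninfused Gcg KO liver, 91.0 ± 6.71 (n = 4) in Gcg KO liver at 30 µg/d and 147 ± 27.7 (n = 4) at 150 µg/d. WT liver at 30 µg/d thus stood beside uninfused Gcg KO liver, and WT liver at 150 µg/d beside uninfused WT liver. Ebp was picked for its small p at 30 µg/d, and the next 2 differences reuse those WT libraries. They are therefore biased toward a difference and give no independent support. In the same fit, the difference between the doses in WT was 0.63 ± 0.11 log2 units (SE, limma adjusted p = 0.0619). The difference between the genotypes in the response to 30 µg/d was −0.89 ± 0.16 (limma adjusted p = 0.157), and neither passed. Between doses Ebp was called with a pseudocount of 5, without a filter on low values, with the same RPKM sum in every library, with the 3 WT groups alone and with array weights, and between genotypes with array weights.

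The other enzymes of cholesterol synthesis stood below their uninfused mean as well, with a wide spread between libraries. SREBP-2, the transcription factor that is released when cell sterol is low, drives these genes. All 24 listed genes were tested; all 24 had a fold change below 0, where 51.9% of all tested genes did, and the median was −0.31 against −0.01. None was called; 3 had an unadjusted p under 0.05 (Ebp, Mvd and Sc5d), against 3.26% of all genes toward lower means. In 1, Ebp, all infused libraries were below all uninfused ones, which held for 4.25% of all tested genes. Genes of 1 pathway in the same libraries are not independent of each other, and the list was described without a test.

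Hmgcs1, the HMG-CoA synthase at the start of the pathway, and Ebp are shown because they represent the members on which the description of the list turns. The windows are the 250 bases before the annotated start in RefSeq (GRCm38.p6), chr13:119690101-119690350 on the plus strand for Hmgcs1 and chrX:8193513-8193762 on the minus strand for Ebp. Both strands were searched for the sterol response element TCACNCCAC, which 1.05% of 32851 windows hold. Hmgcs1 holds 1 match, in capitals, 137 bases before the start. No match is in the window of Ebp, and Hmgcs1 was the 1 gene with a match among 16 of the 24 genes that had a window.
Hmgcs1: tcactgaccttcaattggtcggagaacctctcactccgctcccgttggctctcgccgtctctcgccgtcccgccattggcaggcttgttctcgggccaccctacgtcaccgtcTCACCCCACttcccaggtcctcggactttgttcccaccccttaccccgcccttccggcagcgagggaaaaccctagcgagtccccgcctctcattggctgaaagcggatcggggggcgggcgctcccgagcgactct
Ebp: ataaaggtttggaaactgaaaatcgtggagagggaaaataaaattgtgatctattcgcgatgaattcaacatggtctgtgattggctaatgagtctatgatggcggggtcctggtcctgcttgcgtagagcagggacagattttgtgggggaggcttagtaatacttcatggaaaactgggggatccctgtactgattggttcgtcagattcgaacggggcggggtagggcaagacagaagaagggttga

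Hmgcs1 stood at 115, 153 and 175 RPKM in the uninfused libraries and at 63.0, 73.1, 45.6 and 220 RPKM in the infused ones. Libraries 7, 8 and 9 were below all uninfused libraries and library 10 was above them, so the log2 fold change of −0.81 had a 95% interval of −1.85 to 0.23. Mvd, the mevalonate diphosphate decarboxylase, was at 6.82, 10.8 and 12.7 RPKM against 3.47, 4.80, 3.35 and 11.8 RPKM, with libraries 7, 8 and 9 again below all uninfused ones and library 10 between libraries 2 and 3. Sqle, the squalene epoxidase, was at 34.8, 31.1 and 37.8 RPKM against 14.4, 26.9, 19.03 and 56.5 RPKM. Sc5d, the lathosterol desaturase, was at 163, 217 and 238 RPKM against 124, 140, 129 and 177 RPKM, and here library 10 was above library 1 alone.

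Over the list, library 10 was on the other side from the rest of its group. The median member stood 0.67, 0.32 and 0.64 log2 units below the uninfused mean in libraries 7, 8 and 9 (medians of −0.67, −0.32 and −0.64), and 0.28 above it in library 10. Among the uninfused libraries it was −0.21, 0.04 and 0.19, so libraries 1 and 3 differed as well. Of 24 members, 23, 23 and 22 were below the uninfused mean in libraries 7, 8 and 9, and 6 were below it in library 10.

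Without library 10, all 24 members were again below 0, where 50.5% of all tested genes were, with a median of −0.54. Without library 10, all remaining infused libraries were below all uninfused ones in 13 of 24 (7.87% of all tested genes), and 7 of 24 had an unadjusted p under 0.05 toward lower means (4.43% of all). These counts rest on leaving out library 10. Without library 1 both counts were 5, and without library 2, 3, 7, 8 or 9 both were 1, with 21 to 24 members below 0 and medians of −0.41 to −0.21 over these 6 alternatives. None was called in limma without library 10 either, where 1002 genes (8.65%) had an unadjusted p under 0.05. Hmgcs1 then had a log2 fold change of −1.28 (95% interval −2.22 to −0.34, limma adjusted p = 0.509) and Ebp one of −0.72 (−0.97 to −0.46, limma adjusted p = 0.0873).

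**Figure D2:**
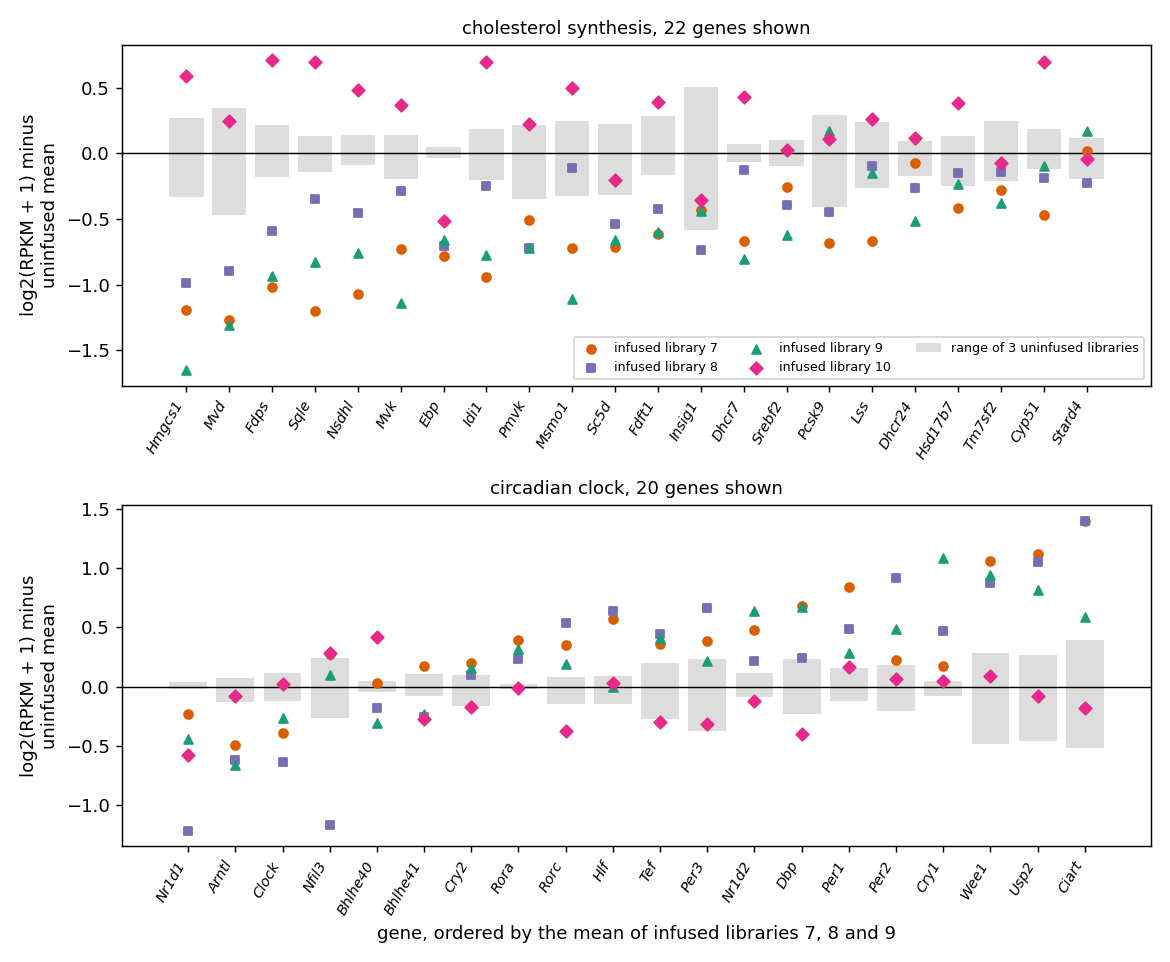
Each infused library's log2(RPKM + 1) minus the uninfused mean (symbols), for 22 of the 24 genes of cholesterol synthesis (top) and 20 of the circadian clock (bottom); grey bars span the 3 uninfused libraries. Libraries 7, 8 and 9 lie below the bars for many cholesterol genes, with medians over all 24 of −0.67, −0.32 and −0.64, while library 10 lies at 0.28; in the clock genes libraries 7, 8 and 9 lie farther from 0 than library 10 in Wee1, Usp2 and Arntl.

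In genes of the circadian clock, too, library 10 often lay apart from libraries 7, 8 and 9, here within the range of the uninfused libraries. Its median member stood at −0.08 log2 units from the uninfused mean, against 0.36, 0.34 and 0.25 in libraries 7, 8 and 9 and −0.13 to 0.07 in the uninfused ones. Nr1d1 was an exception, with library 10 at 32.2 RPKM among the infused libraries (20.2 to 41.2) and below the uninfused ones (47.8 to 49.7). The clock is a feedback loop in which Clock and Arntl (BMAL1) activate Per and Cry genes through E-boxes, and Per and Cry proteins repress them. In liver it runs with the feeding cycle, and Dbp, Wee1, Usp2 and Ciart are among its outputs. Of 20 tested genes 0 were called, 14 had a fold change above 0 (48.1% of all genes did) and 6 below, and the median was 0.23. At an unadjusted p under 0.05, Wee1 and Usp2 had higher means (2.41% of all genes did) and Clock a lower one (3.26%). The infused libraries did not overlap the uninfused ones in Per1 and Cry1 (above, 3.24% of all genes) and Nr1d1 (below, 4.25%).

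Per1 has 2 windows, and the 1 shown was picked as the first that holds an E-box (RefSeq, GRCm38.p6, plus strand, chr11:69098699-69098948). These 250 bases before an annotated start hold CACGTG, in capitals, 166 bases before that start. Of 32851 windows 6.02% hold these letters, which read the same on both strands. Of 17 clock genes with a window 5 hold them in at least 1 window, namely Bhlhe41, Ciart, Cry1, Per1 and Tef.
Per1: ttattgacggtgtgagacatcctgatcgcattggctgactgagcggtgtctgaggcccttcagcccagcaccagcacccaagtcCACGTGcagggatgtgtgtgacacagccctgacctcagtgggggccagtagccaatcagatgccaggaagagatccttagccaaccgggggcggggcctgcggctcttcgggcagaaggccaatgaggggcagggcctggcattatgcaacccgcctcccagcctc

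Per1, which represses the loop, was at 7.59, 8.16 and 9.42 RPKM in the uninfused and at 15.8, 12.1, 10.4 and 9.51 RPKM in the infused libraries. The groups did not overlap, but library 10 was only just above library 3, and the log2 fold change of 0.44 had a 95% interval of −0.10 to 0.99. Wee1, a kinase that holds back mitosis, was at 1.81, 3.77 and 3.51 RPKM against 7.17, 6.22, 6.57 and 3.16 RPKM. Usp2, a deubiquitinase, was at 6.87, 11.4 and 11.99 RPKM against 22.5, 21.5, 18.03 and 9.22 RPKM. In both genes libraries 7, 8 and 9 were above every uninfused library and library 10 was among them.

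The activators stood on the other side in the same libraries. Arntl was at 0.98, 0.99 and 0.72 RPKM against 0.34, 0.23, 0.20 and 0.79 RPKM, and Clock at 4.13, 5.03 and 4.61 RPKM against 3.25, 2.58, 3.65 and 4.66 RPKM. Libraries 7, 8 and 9 were below all uninfused libraries in both, and library 10 was within their range. Without library 10, all infused libraries lay above all uninfused ones in 11 of 20 clock genes and below them in 3, where 8.25% and 7.87% of all tested genes did. Then 8 had an unadjusted p under 0.05 toward higher (4.21% of all genes) and 2 toward lower means (4.43%), still with 0 called. Wee1 had a log2 fold change of 0.96 (95% interval 0.42 to 1.504, limma adjusted p = 0.308) and Usp2 of 0.996 (0.50 to 1.49, limma adjusted p = 0.249). These counts and values rest on leaving out library 10. Without library 1, 2, 3, 7, 8 or 9, only 2 to 3 clock genes were above without overlap and 1 to 2 below. An unadjusted p was then under 0.05 in 0 to 3 toward higher and 0 to 1 toward lower means. The hour at which each liver was taken is not in the labels, and its part in these values was not tested.

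In amino acid catabolism 50 of 58 tested genes had a fold change below 0 (86.2%, against 51.9% of all genes), with a median of −0.15. None was called. An unadjusted p was under 0.05 in 3 (Amt, Gldc and Haao, all toward lower means), where 3.26% of all genes had one toward lower means and 5.67% in either direction, and in 8 all infused libraries were below all uninfused ones (4.25% of all genes). Gldc, which with Amt cleaves glycine in mitochondria, was at 44.5, 39.4 and 41.0 RPKM against 27.5, 32.6, 17.3 and 30.7 RPKM. Every infused library was below every uninfused one, with library 9 the lowest, and the log2 fold change was −0.64 (95% interval −1.24 to −0.05, limma adjusted p = 0.837). Haao, of tryptophan breakdown, was at 293, 281 and 304 RPKM against 258, 257, 224 and 266 RPKM, again with library 9 lowest.

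The shift in this list was mostly that of 2 libraries. The median member stood 0.39 log2 units below the uninfused mean in library 9 (−0.39) and 0.21 below it in library 10 (−0.21), but at −0.02 in both libraries 7 and 8. Without library 9 the median over the list was −0.07, and 43 of 58 were below 0, against 52.2% of all tested genes. All 9 tested urea cycle genes had an interval within 1 log2 unit of 0, with 7 below 0 and a median of −0.07. Of 17 amino acid transporters 10 were above 0, with a median of 0.01.

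Immediate-early and stress genes had the highest median of the lists, 0.30, with 22 of 26 above 0 (48.1% of all genes were). An unadjusted p was under 0.05 in 1, Maff, toward a higher mean, where 2.41% of all genes had one. The rank of this list turned on library 10. Without that library its median was 0.12, with 18 of 26 above 0 (50.5% of all tested genes were below 0), and the circadian clock stood higher, at 0.40. Its median was 0.14 without library 3 and 0.44 without library 9. Levels in this list followed single libraries rather than groups. Fos, a transcription factor that cells switch on within minutes of stimulation, was at 13.7, 3.52 and 0.57 RPKM against 31.1, 4.13, 3.65 and 38.6 RPKM. Egr1, of the same class, was at 78.2, 19.04 and 2.31 RPKM against 72.1, 22.6, 12.2 and 111 RPKM. Libraries 1, 7 and 10 were high in both genes, and in no member of the list were the groups apart. The median member stood 0.53, 0.77 and 0.55 log2 units above the uninfused mean in libraries 1, 7 and 10, and 0.41 below it (−0.41) in library 3. The acute phase genes, which the liver makes under inflammation, had medians of 0.52 in library 1 and 0.54 in library 10 and between −0.43 and −0.07 in the other 5.

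The other metabolic lists had 0 genes called. Fatty acid oxidation and ketogenesis had 18 of 35 above 0 (median 0.01). Fatty acid synthesis had 14 of 20 below 0 (median −0.17), and its median was −0.36 without library 1 and −0.03 without library 3. Glycolysis and glycogen had 21 of 26 below 0 (80.8% against 51.9% of all genes, median −0.11). An unadjusted p was under 0.05 in 1, Ppp1r3c, a glycogen-targeting phosphatase subunit, toward a lower mean (3.26% of all genes). Bile acid genes had 13 of 24 above 0 (median 0.07), and xenobiotic metabolism had 24 of 39 below 0 (median −0.10). Of 24 periportal genes 19 were below 0 (79.2%, median −0.15), the same median as in amino acid catabolism, and in 4 all infused libraries were below all uninfused ones (4.25% of all genes). Of 30 pericentral genes 17 were below 0 (median −0.01). Of 27 interferon response genes, 27 had an interval within 1 log2 unit of 0.

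**Figure D3:**
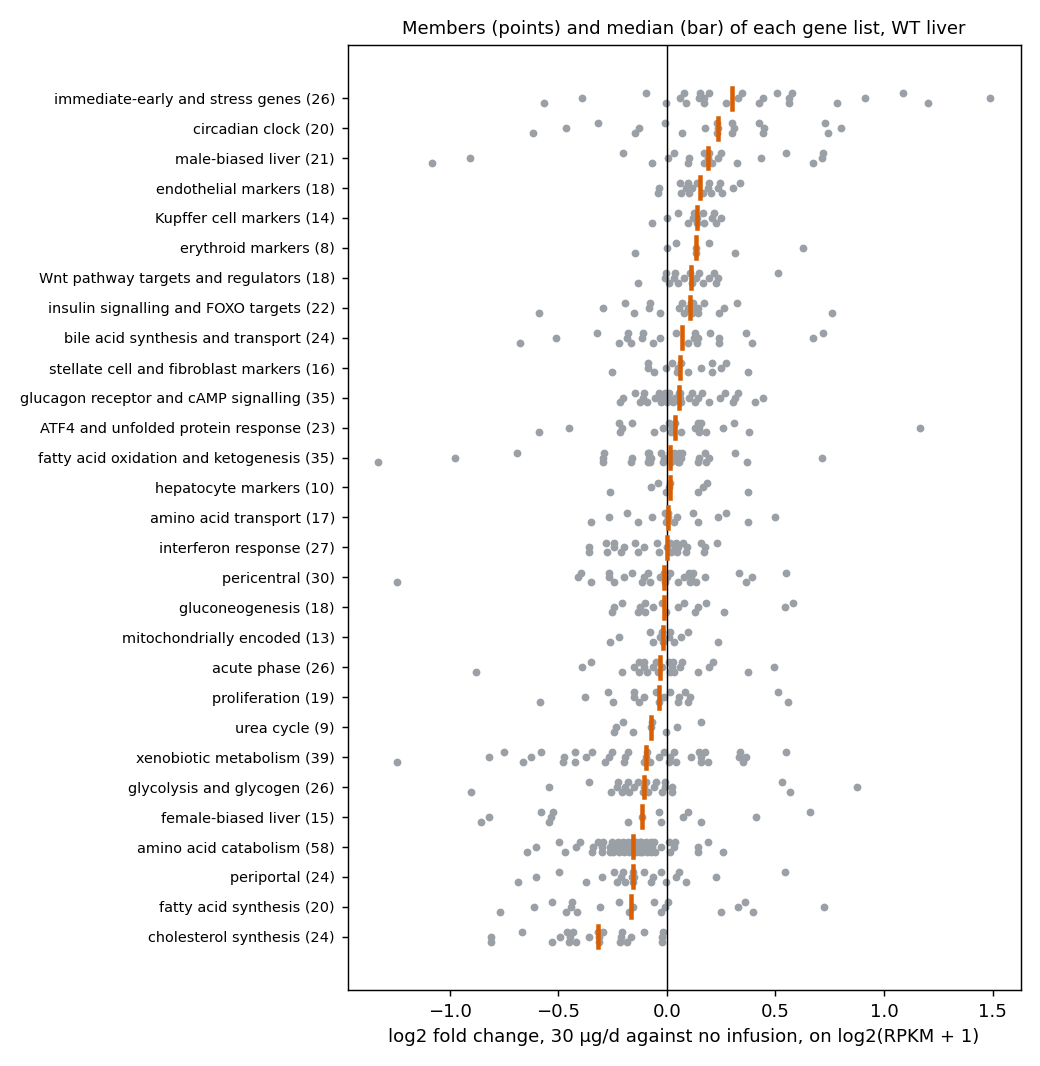
Log2 fold change of every tested member (points) and the median (bar) for each list with at least 8 tested genes, WT liver at 30 µg/d against no infusion; the number of tested genes is in brackets. All 24 cholesterol synthesis genes lie left of 0 (median −0.31), immediate-early genes have the highest median (0.30, but 0.12 without library 10), and no point passed the test.

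Markers of the other liver cell types were compared in the same way. In whole tissue a change in the number of cells of a type and a change in RNA per cell cannot be told apart. Of 18 endothelial markers 16 were above 0 (48.1% of all genes were), with a median of 0.15. Their summed level was 189 to 203 RPKM in uninfused and 205 to 244 RPKM in infused libraries. The sums did not overlap, but library 10 (204.8 RPKM) was only just above library 1 (203.2 RPKM). The median marker stood 0.24, 0.05, 0.29 and 0.05 log2 units above the uninfused mean in libraries 7, 8, 9 and 10. In libraries 1, 2 and 3 it stood at 0.08, 0.02 and −0.10, so libraries 8 and 10 lay below library 1. An unadjusted p was under 0.05 in Tek, Pecam1 and Kdr, toward higher means (2.41% of all genes), and all 18 intervals lay within 1 log2 unit of 0. Tek, the angiopoietin receptor, was at 3.28, 3.12 and 2.79 RPKM against 4.07, 3.55, 4.05 and 3.61 RPKM, with no overlap and a log2 fold change of 0.25 (95% interval 0.08 to 0.41, limma adjusted p = 0.837).

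Of 14 markers of Kupffer cells, the resident macrophages, 13 were above 0 (median 0.14), but without library 9 only 4 were (median −0.04). The sum was 467 RPKM in library 9 and 219 to 333 RPKM in the other 6. Stellate cell and fibroblast markers summed to 165 to 180 RPKM against 155 to 220 RPKM, and neutrophil and monocyte markers to 5.66 to 7.84 against 4.85 to 14.8 RPKM, highest in library 10. Cholangiocyte markers summed to 17.6 to 34.2 against 19.2 to 33.3 RPKM, lymphocyte markers to 3.90 to 5.76 against 5.15 to 5.98 RPKM, and erythroid markers to 706 to 1596 against 827 to 1935 RPKM. No marker on these lists was at 0 in all 7 libraries, while 7 of 13 pancreas and adipose markers were (Prss1, Prss2, Cpa1, Cpb1, Ctrb1, Amy2a5 and Lep). The part of these cell types in the gene differences above was not tested.

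Among genes without overlap between the groups, taken by the naming rule in order of size, several stood at separate levels in single libraries of the whole series. Rnaset2a and Rnaset2b are near-identical copies of a lysosomal ribonuclease gene on chromosome 17 (8128580 to 8148246 and 6978860 to 6998193). Rnaset2a was at 24.7, 23.7 and 13.2 RPKM in the uninfused and at 62.5, 82.4, 86.8 and 86.9 RPKM in the infused libraries, and Rnaset2b at 111, 95.05 and 121 against 50.4, 35.1, 22.2 and 26.8 RPKM. The copies were thus mirror images, with log2 fold changes of 1.94 and −1.73. How the authors treated reads shared by copies is not given in the sources used here, and the single rows are uncertain for that reason. Summed, the copies were at 130 ± 9.41 RPKM (SD, n = 3) against 113 ± 3.48 (n = 4), a log2 difference of −0.19 with an exact two-sided permutation p of 0.0286, the smallest that 35 arrangements can give. That p is reached only where the groups do not overlap, which held for 868 of 11590 genes (7.49%). The sum was formed after the values were seen, from rows named for not overlapping, so its p is a description. In limma the sum had an adjusted p of 0.838.

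The high and low levels of these rows recurred outside the comparison, which was looked at after their values were seen. Rnaset2a was at 13.2 to 24.7 RPKM in 5 of the 22 libraries, the 3 uninfused WT ones and 1 in each infused Gcg KO group, and at 50.4 to 97.5 RPKM in the other 17. Pter, which encodes a phosphotriesterase-related protein, was at 30.7, 29.4 and 33.0 RPKM against 13.3, 12.6, 14.5 and 16.04 RPKM, a log2 fold change of −1.09 (95% interval −2.03 to −0.15). Over the series it lay at 9.11 to 16.04 RPKM in 9 libraries and at 29.4 to 48.2 RPKM in 13, with nothing between. Prpf19, a splicing factor, lay at 10.2 to 13.8 RPKM in 11 libraries and at 32.8 to 50.9 RPKM in 11, and its infused libraries 7, 9 and 10 were low and library 8 high. Such a division into separate levels crossed genotype and dose in Pter and Prpf19, and its source was not tested.

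Adck3, a mitochondrial kinase-like protein needed for coenzyme Q (chromosome 1, 180165238 to 180196020), was at 96.8, 99.5 and 121 RPKM in the uninfused and 56.0, 52.1, 27.9 and 60.5 RPKM in the infused libraries. All infused libraries were lower, and the log2 fold change was −1.14 ± 0.23 (SE; 95% interval −1.62 to −0.66). The 3 uninfused WT libraries were also above each of the 19 other libraries of the series, which lay at 27.9 to 64.3 RPKM. Gcg KO liver without infusion, at 54.5 ± 4.15 RPKM (SD, n = 3), thus stood near liver at 30 µg/d, at 49.1 ± 14.6 RPKM (SD, n = 4).

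Of other genes with higher levels in all infused libraries, Coq10b, which also serves coenzyme Q, was at 16.9, 22.6 and 17.7 RPKM against 31.5, 33.8, 37.6 and 24.7 RPKM (log2 fold change 0.71, 95% interval 0.28 to 1.13). Ptp4a1, a phosphatase linked to growth, was at 11.4, 15.8 and 7.92 RPKM against 32.2, 22.9, 18.5 and 19.8 RPKM (0.95, 0.35 to 1.55). Fam102a was at 7.58, 7.79 and 6.98 RPKM against 11.1, 15.9, 9.93 and 9.87 RPKM (0.56, 0.26 to 0.87). In these 3 genes the infused group was above without overlap, and none passed (limma adjusted p of 0.834 to 0.836). The other genes that the rule took for higher levels were TrnL1, Gdpd3, Serpina3h, Slco1a1, Cers6, Il1r1, Blnk and Pfkfb3, with log2 fold changes of 0.57 to 1.54.

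Of genes with lower levels in all infused libraries, Siva1, an apoptosis-related gene, was at 4.56, 4.40 and 3.86 RPKM against 2.29, 2.42, 1.98 and 2.66 RPKM, a log2 fold change of −0.66 (95% interval −0.95 to −0.37, limma adjusted p = 0.482). Ppil1, a cyclophilin of the spliceosome, had −0.59 (−0.87 to −0.31), and Aagab, which helps assemble clathrin adaptors, −0.33 (−0.49 to −0.17). Both groups were tight in Aagab, at 10.3 to 10.98 against 7.55 to 8.75 RPKM. Tymp, the thymidine phosphorylase, had −0.86 (−1.39 to −0.32) and Tubb2a, a tubulin, −0.81 (−1.63 to 0.01), with library 10 of the infused group nearest to the uninfused libraries in both. Such genes without overlap were 492 of 11590 toward lower (4.25%) and 376 toward higher levels (3.24%), 868 in all (7.49%).

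**Figure D4:**
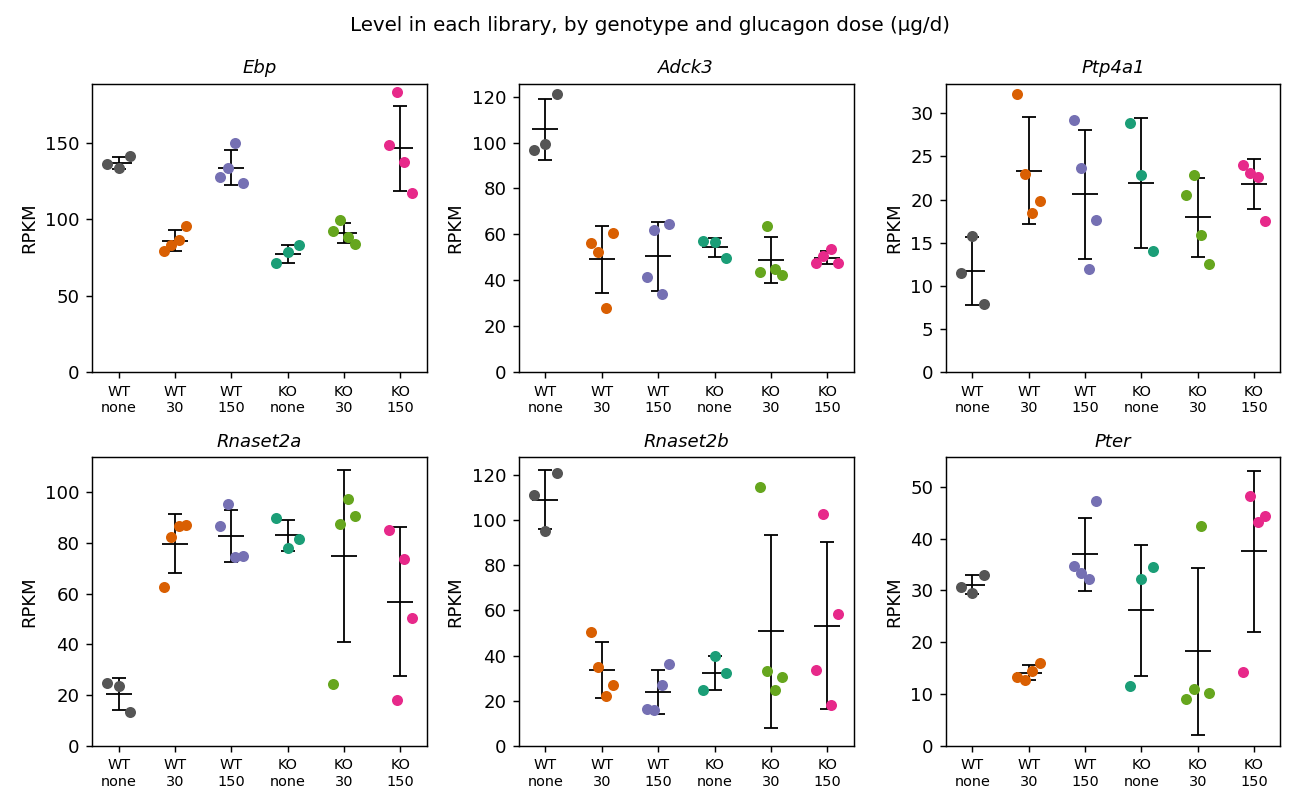
RPKM of 6 genes in each of the 22 libraries (points), by genotype and glucagon dose in µg/d, with the mean and SD of 3 or 4 libraries. Ebp is low in WT at 30 µg/d (79.2 to 95.3) and high again at 150 µg/d, uninfused WT liver alone is high in Adck3 (96.8 to 121), and Rnaset2a, Rnaset2b and Pter each lie on separate levels in single libraries.

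Tests of the difference itself asked whether 30 µg/d differed from 150 µg/d in WT liver. Of 11590 genes 1 was called (0.00863%), and 941 (8.12%) had an unadjusted p under 0.05. The called gene was Mmd2, a membrane protein of the progestin and adiponectin receptor family (chromosome 5, 142563480 to 142608936). Mmd2 was at 2.86, 3.98 and 2.09 RPKM in uninfused WT liver and at 4.52, 1.92, 3.79 and 2.84 RPKM at 30 µg/d, where the groups overlapped. At 150 µg/d it was at 15.02 ± 1.82 RPKM (SD, n = 4), a log2 difference of 1.94 ± 0.29 (SE) from the lower dose (limma adjusted p = 0.0265). The call was lost when library 8, 10, 15, 16, 17 or 18 was left out. Cyp17a1, a steroid hydroxylase, was at 3.29 ± 1.11 RPKM at 30 µg/d and 29.5 ± 11.4 RPKM at 150 µg/d (n = 4 each) without passing (limma adjusted p = 0.0914), though it was called with a pseudocount of 5, with the groups alone, with the 3 WT groups and with array weights.

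The response to 30 µg/d was then tested for a difference between WT and Gcg KO liver, and 1 gene was called (0.00863%), with 1045 (9.02%) at an unadjusted p under 0.05. This was Atxn1, a transcriptional repressor known from spinocerebellar ataxia (chromosome 13, 45549755 to 45964991). In WT liver it was at 3.43, 4.24 and 2.81 RPKM without infusion and at 1.61, 3.12, 2.14 and 2.21 RPKM at 30 µg/d. In Gcg KO liver it was at 2.10 ± 0.46 RPKM (SD, n = 3) without infusion and 5.77 ± 0.90 (n = 4) at 30 µg/d, so the means differed in opposite directions. The difference of the responses was −1.59 ± 0.23 log2 units (SE, limma adjusted p = 0.0167), and the call was lost when library 1, 2, 4, 9 or 14 was left out. Oat, at 677 ± 106 and 574 ± 105 RPKM in WT and 68.2 ± 14.6 and 164 ± 39.7 RPKM in Gcg KO liver (without infusion and at 30 µg/d, SD, n = 3 and 4), had a difference of −1.49 ± 0.56 that did not pass (limma adjusted p = 0.454).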

How the data were processed

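Flash-frozen liver was the source of all RNA. Per the labels' protocols, it was extracted in Trizol and cleaned with MagMAX reagents and DNase, Dynabeads enriched the mRNA, and KAPA reagents gave strand-specific libraries. CASAVA 1.8.2, FastQC and GRCm38 appear in the submitters' processing notes. Which aligner, counter and annotation were used, whether strand entered the counting and how reads shared by copies were treated is not given in the sources used here. The authors deposited RPKM, with 1 column per library.

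Genes with a mean of at least 0.5 RPKM over 22 libraries were fitted with limma 3.58.1 in R 4.3.3 on log2(RPKM + 1), all 6 groups together and with a mean-variance trend (16 residual and 3.18 prior degrees of freedom). A Benjamini-Hochberg adjusted p under 0.05 made a call. Fold changes on this scale understate changes of low genes. The fit was tested on simulated data.

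Depth was estimated from low values of 3984 genes with 1 annotated transcript. Of these values 68.7 to 73.0% came out whole within 0.1 read, where chance gives 20%, too few for a count test.

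Genes were named by rule: the 12 largest rises and 12 largest falls without overlap between groups among genes of at least 1 RPKM, the 6 smallest p, fixed landmarks, and up to 3 members of each of 34 lists. The values of 2 list members are not reported here. Others named (Sqle, Fos, Egr1, and the values on separate levels) were chosen after their values were seen. Members and lists were chosen with earlier results of these data known, so list counts are descriptions. Alternatives covered pseudocount, filter, scaling, fit and each library left out. RefSeq identifiers on GRCm38.p6 matched 24375 genes; promoter windows were 250 bases.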

Additional observations from a re-analysis of the deposited data

Results flagged for a closer look

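Of 110 values checked in the 4 infused WT libraries, 7 had 1 library far from the other 3, and chance flags about 1 in 20 such groups. A further 9 rows were chosen because library 10 was already seen to stand apart in them, so they were bound to be set apart and are given as a description. Library 10 alone held Scgb1a1 (83.4 RPKM), Sftpc (46.9), Scgb3a2 (1.86) and Bpifa1 (3.24), genes of airway and alveolar epithelium, and the rows for eGFP (4.11) and IRES (1.49), each listed at 0 in all 21 other libraries. It also held Sftpb (5.62 RPKM, at most 0.06 elsewhere), and the keratins Krt13 (6.92, at most 0.07 elsewhere) and Krt4 (6.07, at most 0.46 elsewhere).

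In cholesterol synthesis, Hmgcs1 was at 220.2 RPKM in library 10 against 45.6 to 73.1 in the other infused libraries, and Mvd at 11.8 against 3.35 to 4.80. Prpf19 was at 34.1 RPKM in library 8 against 11.2 to 12.5. Library 7 was apart in Pfkfb3 (5.98 against 7.80 to 8.13 RPKM), Cyp3a16 (1.81 against 0.44 to 0.66 RPKM) and the summed female-biased liver genes (137 against 72.7 to 80.4 RPKM). Cyp17a1 was at 4.95 RPKM in library 9 against 2.53 to 2.92.

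The response to 30 µg/d differed between WT and Gcg KO liver in Atxn1, by −1.59 log2 units in limma's test of the interaction.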

How the results depend on the processing

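The count of 0 genes at 30 µg/d held for the other pseudocounts, filters and scalings and whichever library was left out (0 to 0). It was 1 with the compared groups alone in the fit (Pter), 2 with the 3 WT groups in it (Pter and Rnaset2a) and 4 with array weights (Adck3, Ebp, Ppil1 and TrnL1). Between doses the count of 1 was 0 with a pseudocount of 0.1, 7 with one of 5, 5 without a filter on low values, 2 with the same RPKM sum in every library, 3 with the groups alone, 6 with the 3 WT groups and 12 with array weights, and 0 to 4 when 1 library was left out. Between genotypes it was 2 without a filter, 0 with the groups alone and 11 with array weights, and 0 to 3 when 1 library was left out. The cause was not tested.

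Of the log2 fold changes of named genes, 1400 kept direction and side of the threshold, 7 passed it under an alternative and 31 changed sign. Those near 0 turned with the scaling: Glul to 0.0057 with median-of-ratios scaling, 0.010 with the same RPKM sum and 0.045 with array weights, and Cps1 to 0.0017, 0.0061 and 0.0056 under these settings and 0.048 under quantile normalization. Nnmt turned to 0.013 under quantile normalization and 0.071 with array weights, and G6pc to 0.0035 with array weights. With the copies summed, Rnaset2a became −0.19. Leaving out 1 library gave ranges of −0.56 to 0.32 for Asns, −0.10 to 0.075 for Cps1, −0.045 to 0.24 for Cyp2f2, −0.66 to 0.0019 for G6pc, −0.029 to 0.044 for Glul, −0.54 to 0.039 for Got1, −0.078 to 0.26 for Mmd2, −0.15 to 0.053 for Nnmt, −0.47 to 1.41 for Rgs16 and −0.040 to 0.51 for Txnip. No paired analysis was possible because the running numbers in the labels are unique to each library. Precision is limited by 3 and 4 libraries: the median half-width of the 95% interval was 0.26 log2 units.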

Other observations

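Osgin1, an oxidative stress gene chosen after its values were seen, stood at 319.8 RPKM in the infused library 9 and at 22.2 to 41.3 RPKM in the other 6 WT libraries. Ndufa11, a subunit of complex I, was at 48.1 RPKM in the uninfused library 2 and at 8.94 to 11.4 RPKM in the other 6. Over all 22 libraries Ndufa11 lay at 8.94 to 11.9 RPKM in 19 and at 48.1 to 54.9 RPKM in 3, with nothing between. The summed genes of amino acid catabolism were at 9717 RPKM in library 9 and at 12917 to 15045 RPKM in the other 6.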
